A study of Mus musculus with 10 samples.

Results

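The nuclear-encoded subunits of oxidative phosphorylation were described here in RAW264.7 cells, a mouse macrophage line. They were taken as the genes whose symbols begin Ndufa, Ndufb, Ndufc, Ndufs, Ndufv, Sdh, Uqcr, Cox4 to Cox8 with an isoform letter, or Atp5, with at least 10 reads summed over all libraries and with pseudogenes named as such left out. By this rule 86 symbols of the 43432 genes in the count table matched and 81 had enough reads, namely 38 of complex I, 4 of complex II, 8 of complex III, 14 of complex IV and 17 of complex V. Complexes were assigned by the start of the symbol alone. Ndufa4 and Ndufa4l2 thus count under complex I by name, and not by where their proteins sit. Just inside the limit were Ndufa4l2 with 13 reads and Cox6b2 with 15, and just outside it Ndufs6b with 7, Ndufa11b with 3, Cox7b2 with 1 and Cox8b and Cox8c with 0. The symbol rule passes over a few true subunits (Cox4i1, Cyc1 and Ndufab1) and takes in 2 genes annotated as processed pseudogenes (Ndufb4c and Cox6c2), as well as Atp5s, a coupling factor and not a structural subunit, and Cox7a2l, which joins complexes III and IV.

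Oxidative phosphorylation passes electrons from NADH through complex I, or from succinate through complex II, by way of ubiquinone to complex III, cytochrome c and complex IV, where oxygen is reduced. Complexes I, III and IV pump protons across the inner mitochondrial membrane, and complex V, the ATP synthase, uses the gradient to make ATP. Apart from 13 subunits encoded in mitochondrial DNA, the parts of these machines are made from nuclear genes, many of them for small proteins with short mRNAs. In macrophages the system is of interest because activation by bacterial lipopolysaccharide (LPS) shifts metabolism towards glycolysis, and succinate, the substrate of complex II, takes part in inflammatory signalling.

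Poly(A) RNA was sequenced from 10 libraries in 5 groups of 2, all harvested at 12 h. The groups were DMSO (0.5%) alone, the same DMSO with 1 µg/mL LPS (called DMSO + LPS), and LPS after a 1 h pretreatment with compound 1 at 32, 10 or 3.2 µM. Compound 1 is an unsaturated keto fatty acid obtained from a cyanobacterial mat. RAW264.7 is a virus-transformed line, so the cells stand in for macrophages only in part. The labels number the 2 libraries of a group under the tag biorep without saying whether they were separate cultures, and p-values therefore measure the spread between these libraries, which may be technical. The libraries held 45966803 to 58976377 reads on genes, of which the 81 genes took 0.662% to 1.021%. Values are CPM, the reads of a gene relative to the library's size after scaling by the trimmed mean of M values, differences are log2 fold changes from edgeR's quasi-likelihood test on all libraries, and a gene passed the test at an adjusted p (Benjamini-Hochberg over 14172 genes) below 0.05.

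All 10 macrophage markers were above 5 CPM in every library. Of the T cell markers, Cd3e and Cd8a had no read at all, and the 5 together reached at most 0.0699 CPM. The 4 B cell markers together lay between 0.119 and 0.465 CPM. The 4 epithelial markers summed to 38.2 CPM in 10 µM replicate 1, where Krt8 was at 22.3 CPM and Epcam at 9.69 CPM, and Krt8 was at 3.30 CPM in 3.2 µM replicate 1 and at most 0.0443 CPM in the other libraries. The 5 fibroblast markers likewise summed to between 0.0680 and 7.87 CPM, with the highest value in 10 µM replicate 1. What these reads add to the subunit genes was not tested. Nos2, the inducible nitric oxide synthase, was at most 0.0340 CPM in the DMSO libraries and at 209.6 and 202 CPM with DMSO + LPS, as the labels imply.

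Nearly all subunit genes were expressed, and a few were close to silent. Per kilobase of transcript, the median level over all libraries was 54.3 CPM for complex I, 81.1 for complex II, 103 for complex III, 118 for complex IV and 166 for complex V. Atp5b, the catalytic beta subunit of ATP synthase, was highest at 742 CPM per kilobase, followed by Atp5g3, a gene for the membrane ring subunit c, at 364 and Atp5a1, the alpha subunit, at 331. The lowest were Ndufa4l2 at 0.0269, Cox6b2 at 0.0630 and Ndufb4c at 0.227 CPM per kilobase. In all, 73 of the 81 averaged at least 5 CPM, and 77 had enough reads to be tested. Ndufb2, an accessory subunit of complex I picked out after its value was seen, stood at 1.57 CPM per kilobase. Its exons share 145 bases with a protein-coding gene on the same strand, Gm42420, and 146 with Braf on the other strand. Whether reads of Ndufb2 were lost through these overlaps was not tested.

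**Figure D1:**
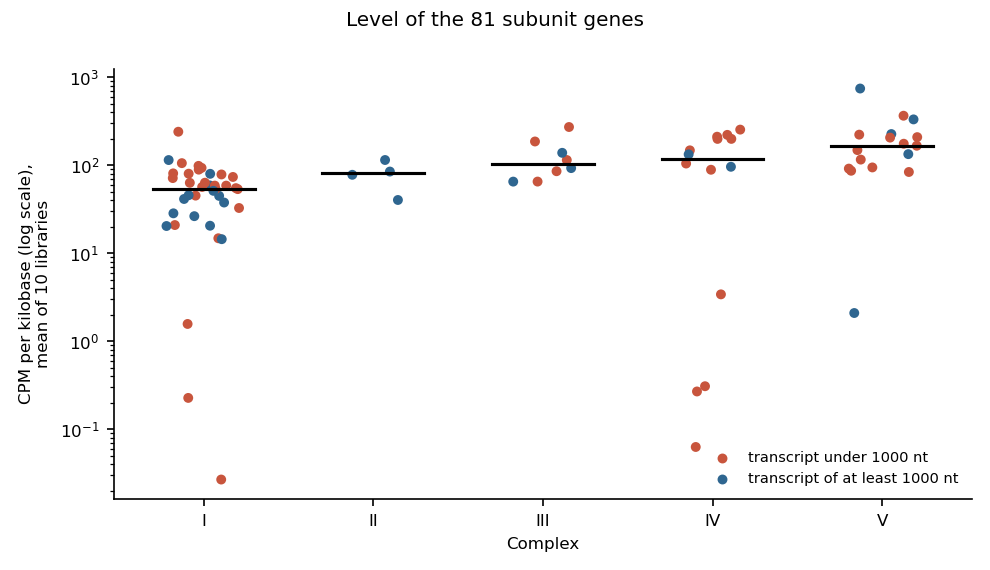
Level of each of the 81 subunit genes by complex, in CPM per kilobase of transcript on a log scale, as the mean of 10 libraries. Each point is a gene, red for transcripts under 1000 nt and blue for longer ones, and the bars are medians, which range from 54.3 in complex I to 166 in complex V, with 8 genes of low level standing apart below 5.

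Of subunits with several genes, some were made almost wholly from 1 form. Cox6a1, the widespread form of complex IV subunit 6A, stood at 221 CPM per kilobase and Cox6a2, the heart and muscle form, at 0.269. Cox6b1 stood at 253 and the testis form Cox6b2 at 0.0630, and Ndufa4 at 239.5 and Ndufa4l2, known as a hypoxia-induced gene, at 0.0269. Each of these pairs kept its order in 10 of 10 libraries. For subunit c of ATP synthase, made as the same mature protein by 3 genes, Atp5g3 was above both others in 10 of 10 libraries. Atp5g2 (208 CPM per kilobase) and Atp5g1 (205) could not be ordered, since Atp5g2 was the higher in 6 of 10 libraries. Cox7a2 (147) and Cox7a2l (133) also overlapped, Cox7a2 being higher in 7 of 10 libraries, and Cox7a2l was above the muscle form Cox7a1 (3.41) in 10 of 10.

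The rule had not used transcript length, and most of the 81 genes had short mRNAs. Their median transcript was 732 nt (range 231 to 3171 nt), against 2530 nt over all genes tested, and 54 of 81 (66.7%) were under 1000 nt against 13.9% of all tested genes. They lay on 19 chromosomes. Of the 77 tested, 50 were under 1000 nt and 27 at or above it, and these sets behaved differently between replicate libraries.

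The level of the short members differed widely between libraries of 1 group. It was taken as the median over the 50 short members of log2 CPM relative to each gene's own mean. For replicates 1 and 2 it was 0.16 and -0.63 in the DMSO group, -0.06 and 0.07 in the DMSO + LPS group, 0.27 and -0.55 for the 32 µM dose, 0.52 and -0.22 for the 10 µM dose, 0.33 and 0.21 for the 3.2 µM dose. Replicate 2 was thus the low one in the DMSO, 32 µM and 10 µM groups, by 1.73-fold, 1.77-fold and 1.67-fold, while the DMSO + LPS and 3.2 µM pairs agreed within 1.09-fold. The 27 longer members moved far less, from -0.17 to 0.14 over the 10 libraries. Atp5k, the small subunit e of ATP synthase with a transcript of 371 nt, stood at 32.7 and 6.45 CPM in the DMSO libraries and at 45.3 and 6.39 CPM at 32 µM, a gap of 7.09-fold between replicates. Sdha, with 2900 nt, differed between replicates by 1.07-fold at most. Among members averaging at least 5 CPM, 17 of 47 short ones and 2 of 26 longer ones differed over 2-fold between replicates of at least 1 group.

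Other short transcripts moved in the same libraries. A score made from 1782 genes under 1000 nt that are neither members nor ribosomal protein genes (their median relative log2 CPM) was lowest in DMSO replicate 2 (-0.29), 32 µM replicate 2 (-0.15) and 10 µM replicate 2 (-0.08), the same 3 libraries in which the short members were lowest. The ribosomal protein genes, 171 of them tested, had their lowest median in DMSO replicate 2 as well (-0.52). The library of 32 µM replicate 2 also held 2.71% of its reads in ribosomal RNA features against 0.125% to 0.316% in the other libraries. What sets these libraries apart was not tested, and no extraction or sequencing batch is named in the labels.

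**Figure D2:**
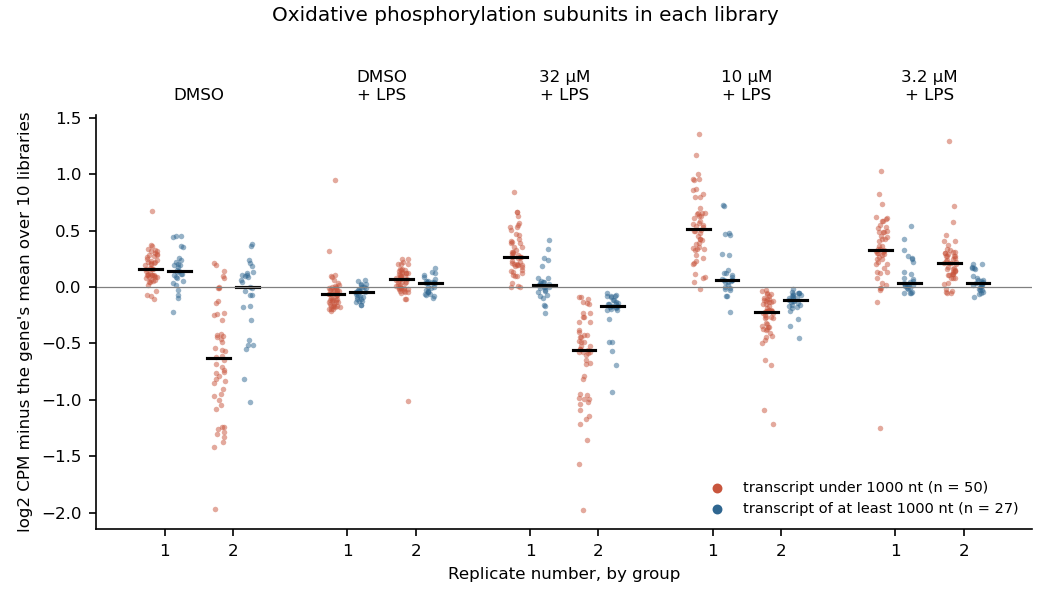
Level of each of the 77 tested subunit genes in each library, as log2 CPM minus the mean of that gene over the 10 libraries, with replicates 1 and 2 of each group side by side. Points are genes, red for transcripts under 1000 nt and blue for longer ones, and black bars are medians, which for the short ones reach -0.63 in DMSO replicate 2 and 0.52 in 10 µM replicate 1 but stay between -0.17 and 0.14 for the longer ones.

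Precision differed accordingly. In the comparison of DMSO + LPS with DMSO, the median standard error of a log2 difference was 0.34 for short members and 0.08 for longer ones, and the median 95% interval reached 1.74-fold to either side for the short members and 1.13-fold for the longer ones.

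The first comparison asked which subunit genes differed after 12 h of LPS. In complex II, succinate dehydrogenase, 3 of 4 genes (Sdha, Sdhb and Sdhd) passed the test and were lower with LPS, and Sdhc did not pass. Of all 77 members tested, 8 were lower and 2 higher, against 25.8% of all tested genes lower and 25.2% higher. By length, 9 of 27 longer members (33.3%) and 1 of 50 short ones (2%) passed, against 55.6% of other long genes and 24.1% of other short ones. None of the members passed at 1.5-fold, against 28.2% of all genes. The median log2 difference of the members was 0.09, against 0.00256 over all genes, and it depended on the DMSO pair, being -0.16 without DMSO replicate 2 and 0.39 without DMSO replicate 1. In bulk RNA such as this, fewer cells expressing a gene and less RNA per cell cannot be told apart.

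Sdha encodes the flavoprotein that oxidises succinate (ENSMUSG00000021577, GRCm38 chr13:74322254-74350280). It stood at 333 and 316 CPM in the DMSO libraries and at 223 and 227 CPM with DMSO + LPS, a fall of 0.53 on the log2 scale (SE 0.05, 1.44-fold, edgeR adjusted p = 6.79e-05). The compound 1 libraries, all with LPS, lay at 227 and 213 CPM (32 µM), 230.0 and 218 CPM (10 µM) and 233 and 233 CPM (3.2 µM), so all 8 libraries with LPS were below both without it. Sdhb, the iron-sulfur subunit (ENSMUSG00000009863, chr4:140961203-140979193), went from 113 and 100.2 CPM to 78.9 and 85.4 CPM, a log2 difference of -0.38 (SE 0.12, adjusted p = 0.0268). Sdhd, one of the membrane anchors that bind ubiquinone (ENSMUSG00000000171, chr9:50596357-50603812), went from 179 and 165 CPM to 132 and 137 CPM, a log2 difference of -0.35 (SE 0.07, adjusted p = 0.00390). Sdhc, the other anchor (ENSMUSG00000058076, chr1:171127165-171150603), did not follow: it stood at 140.4 and 121 CPM without LPS and at 132 and 131 CPM with it, a log2 difference of 0.01 with a 95% interval of -0.21 to 0.22, which excludes a fall as large as that of Sdha.

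The 250 bases upstream of the RefSeq start sites of the 3 genes that fell are shown because they moved together and because nuclear respiratory genes are known for promoters with sites for NRF1 and ETS family factors. The windows, in the orientation of each gene and on GRCm38.p6, are chr13:74350241-74350490 (minus strand) for Sdha, chr4:140961021-140961270 (plus strand) for Sdhb and chr9:50603850-50604099 (minus strand) for Sdhd. Capitals mark GCATGCGC (NRF1) and CCGGAAG (ETS), read on both strands.
Sdha: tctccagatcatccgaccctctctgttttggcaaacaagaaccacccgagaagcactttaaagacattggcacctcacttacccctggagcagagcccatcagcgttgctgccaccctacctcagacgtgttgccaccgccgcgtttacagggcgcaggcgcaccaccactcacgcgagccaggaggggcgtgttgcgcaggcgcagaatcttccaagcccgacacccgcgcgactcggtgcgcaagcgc
Sdhb: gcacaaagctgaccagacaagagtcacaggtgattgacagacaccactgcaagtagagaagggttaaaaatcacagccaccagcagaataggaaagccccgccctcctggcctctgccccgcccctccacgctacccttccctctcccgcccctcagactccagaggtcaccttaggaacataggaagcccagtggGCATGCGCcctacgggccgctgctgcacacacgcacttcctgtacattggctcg
Sdhd: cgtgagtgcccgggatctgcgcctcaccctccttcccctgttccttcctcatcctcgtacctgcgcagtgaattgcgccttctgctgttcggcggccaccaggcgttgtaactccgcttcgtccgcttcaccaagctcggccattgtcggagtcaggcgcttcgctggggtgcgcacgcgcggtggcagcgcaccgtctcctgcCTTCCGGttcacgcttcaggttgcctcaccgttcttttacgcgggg
The Sdhb window held the NRF1 letters 54 bases before the start site and the Sdhd window the ETS letters on the reverse strand, CTTCCGG. The Sdha window held neither, nor AAGATGGC (YY1) or TGACNNNGC (the core of the antioxidant response element). Over windows of 250 bases before to 50 after the start, the NRF1 letters were found in 10 of the 64 members matched to the promoter table by symbol or gene ID (15.6%) and in 3.05% of all 27025 genes there. The ETS letters were in 16 of 64 (25%) against 9.93%, and those of YY1 in 9 of 64 (14.1%) against 3.19%. Sdhb is among the 16, with ETS letters past its start site and so outside the stretch shown. The antioxidant response core was in 9 of 64 (14.1%) and in 3781 of the 27025 genes. A match is only a run of letters, not a bound site.

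In complex V only the gamma subunit passed the test. Atp5c1, the central stalk that turns inside the catalytic head (ENSMUSG00000025781, chr2:10056016-10080510), fell from 185 and 179.7 CPM to 150.1 and 149 CPM, by 0.29 on the log2 scale (SE 0.05, 1.22-fold, adjusted p = 0.00130). Its partners in the head did not pass: Atp5a1 stood at 936 and 879 CPM without LPS and at 818 and 837 CPM with it (log2 difference -0.13, 95% interval -0.26 to -0.00338, adjusted p = 0.0821), and Atp5b at 1393 and 1354 CPM and at 1445 and 1454 CPM (0.08, 95% interval -0.04 to 0.19).

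In complex I, 3 genes were lower and 1 was higher. The lower ones were Ndufa8 (log2 difference -0.24, adjusted p = 0.0284) and Ndufa10 (-0.23, adjusted p = 0.0223), both accessory subunits, and Ndufv1, which binds NADH and flavin (-0.19, adjusted p = 0.0369). Ndufs4, an accessory subunit needed for a stable NADH-oxidising arm, rose from 37.8 and 30.9 CPM to 46.3 and 46.5 CPM (0.43, SE 0.14, adjusted p = 0.0283). Other iron-sulfur and catalytic core genes, Ndufs1, Ndufs3, Ndufs7, Ndufs8 and Ndufv2, had log2 differences from -0.26 (Ndufs7) to -0.06 (Ndufs3) and adjusted p of at least 0.0676. Of these, all but Ndufs3 had both LPS libraries below both DMSO libraries, which was so for 18 of the 77 members and 38.7% of all genes.

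In complex III the changes were small and opposite. Uqcrc2, a core protein, was lower by 0.13 on the log2 scale (adjusted p = 0.0281), and Uqcrfs1, the Rieske iron-sulfur protein, higher by 0.17 (adjusted p = 0.0432). Exons of Pdzd9 lie on the other strand over 19.8% of the exon bases of Uqcrc2, with 96 summed reads for Pdzd9 and 88320 for Uqcrc2, and whether strand was used in counting is not given in the sources used here. Uqcrc1 stood at 248 and 228 CPM and at 227 and 237 CPM (-0.03, 95% interval -0.21 to 0.14). None of the 12 genes of complex IV passed, where Cox5a, a matrix-side subunit, stood at 62.2 and 21.1 CPM without LPS and at 51.1 and 56.3 CPM with it. The interval of its log2 difference ran from -1.14 to 1.87.

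Over the whole set, 13 members had all 8 libraries with LPS below both DMSO libraries (28.8% of all genes did) and 2, Ndufs4 and Uqcrfs1, had all 8 above (27.9%). The calls of Sdha, Sdhd and Atp5c1 were kept in each of 21 alternative analyses, with adjusted p of at most 0.0325. The other 7 were lost in some alternatives, though each kept its direction whichever library was left out, where 1 library stands for its group and is assumed to vary like the others. Without DMSO replicate 1, Sdhb, Ndufa8, Ndufa10, Ndufv1, Uqcrc2 and Uqcrfs1 no longer passed, and 4 members were left. Without DMSO + LPS replicate 1 the same 6 and Ndufs4 were lost. Without DMSO replicate 2, Ndufa8, Ndufs4, Ndufv1, Uqcrc2 and Uqcrfs1 were lost, and without DMSO + LPS replicate 2, Sdhb, Ndufs4, Uqcrc2 and Uqcrfs1. Leaving out either 3.2 µM library lost Ndufv1, Uqcrc2 and Uqcrfs1, and leaving out 10 µM replicate 2 lost Uqcrfs1. With no count filter Ndufv1, Uqcrc2 and Uqcrfs1 did not pass, on the 4 libraries compared Ndufv1 and Uqcrc2 did not, and Ndufs4 and Uqcrfs1 did not with library totals. Uqcrfs1 was also lost with the replicate block and the short-transcript score together.

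**Figure D3:**
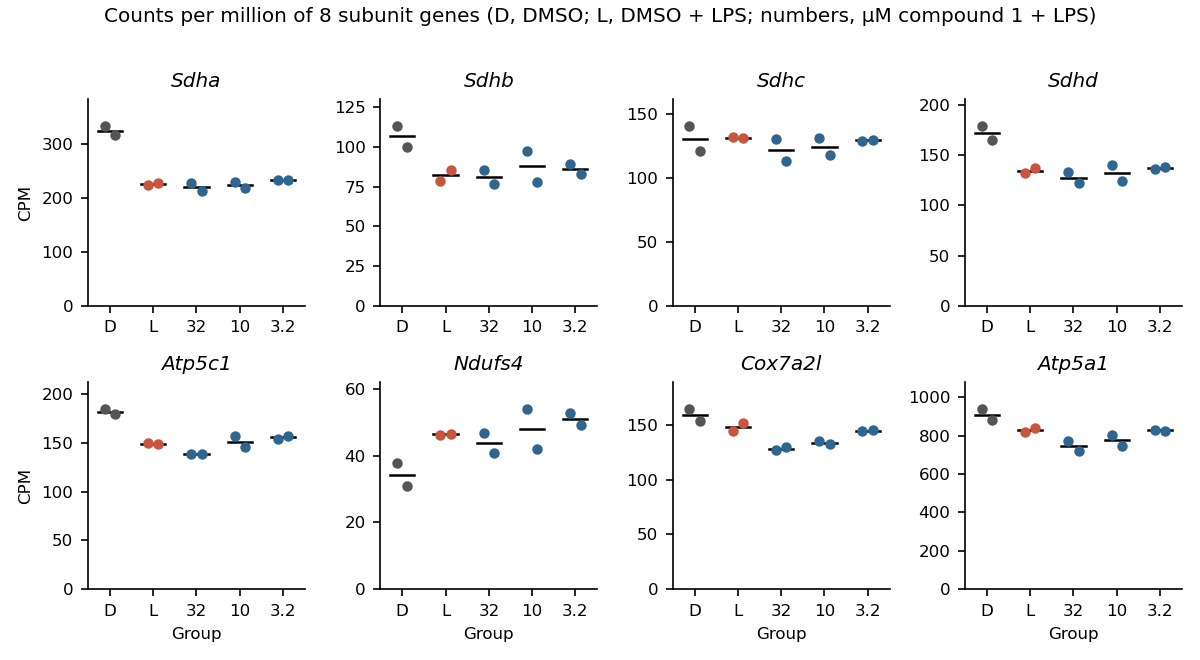
CPM of 8 subunit genes in every library, with dots for the 2 libraries of a group and bars for their means, on axes that start at 0. Sdha, Sdhb, Sdhd and Atp5c1 were lower in all 8 libraries with LPS than in both DMSO libraries, Ndufs4 was higher, Sdhc overlapped, and Cox7a2l was lowest at 32 µM (127 and 129 CPM).

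The LPS comparison changed more than any other when the short-transcript score was placed in the model. With it, 62 of 77 members were lower and 2 higher (all genes: 31.8% lower, 30.8% higher), with a median log2 difference of -0.29 and a median standard error of 0.06. By complex, 32 of 36 genes of complex I, 4 of 4 of complex II, 6 of 8 of complex III, 8 of 12 of complex IV and 12 of 17 of complex V were lower. Sdha was lower by 0.59 and Sdhc by 0.12 in this model, and Cox5a by 0.51, whereas its difference was 0.37 in the model with groups alone. Ndufs4 (0.24) and Uqcrfs1 (0.10) were the higher ones. The score was -0.00281 and 0.07 in the DMSO + LPS libraries and -0.04 and -0.29 in the DMSO libraries, so it differed between these groups as well as within DMSO, and it was calculated from the same libraries. An effect of LPS on short transcripts and a difference between libraries cannot be told apart in it. Under this model the other short genes had a median of -0.08 with LPS and under the model of groups alone of 0.19, where the short members stood at 0.20.

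**Figure D4:**
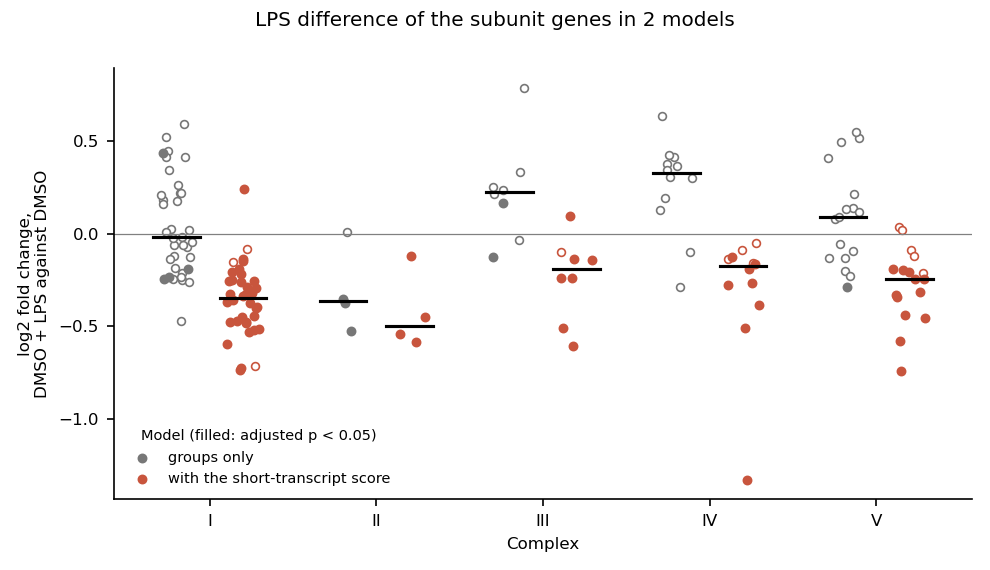
Log2 difference of each tested subunit gene between DMSO + LPS and DMSO, by complex, in a model with groups alone (grey) and in one that also holds the short-transcript score (red). Filled points passed at an adjusted p below 0.05 and bars are medians, which for complex IV lie at 0.33 without the score and at -0.18 with it, while those of complex II are below 0 in both, at -0.37 and -0.50.

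Scaling moved the same comparison less. With library totals in place of trimmed means, log2 differences were lowered by about the same amount throughout, so that the median became -0.20 over all genes and -0.12 over the members, and 20 members were lower and 0 higher (39.2% of all genes were lower). Uqcrfs1 then had a log2 difference of -0.04 and did not pass.

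The next comparisons asked whether compound 1 altered the subunit genes of LPS-treated cells. All 3 doses were set against the same 2 DMSO + LPS libraries, so their differences are not independent. At 32 µM, 1 of 77 members passed, against 9.78% of all genes, and none did at 1.5-fold, against 4.18% of all genes. The median log2 difference of the members was -0.07, being -0.40 without 32 µM replicate 1 and 0.23 without 32 µM replicate 2. In complex II none passed, the log2 difference from DMSO + LPS being -0.03 for Sdha (95% interval -0.15 to 0.09), -0.02 for Sdhb (-0.29 to 0.25), -0.08 for Sdhd (-0.25 to 0.09) and -0.11 for Sdhc (-0.33 to 0.10). The upper ends of these intervals for Sdha, Sdhb and Sdhd lie below the size of the fall that each showed with LPS.

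The gene that passed was Cox7a2l (ENSMUSG00000024248, chr17:83501918-83517330), whose protein bridges complexes III and IV in the respiratory supercomplex. It stood at 144 and 152 CPM with DMSO + LPS and at 127 and 129 CPM at 32 µM, lower by 0.21 on the log2 scale (SE 0.05, 95% interval -0.32 to -0.10, adjusted p = 0.0314). It stood at 135 and 133 CPM at 10 µM (log2 difference -0.15, edgeR adjusted p = 0.238) and at 144 and 145 CPM at 3.2 µM (-0.03), so the 3 doses did not overlap and the level was lowest at the highest dose. How many of all genes follow this order was not counted, and the gene itself was picked by its value at 32 µM. In the DMSO libraries it was at 164 and 153 CPM. The call was lost when either library of DMSO + LPS, 32 µM or 3.2 µM was left out and when only the 4 libraries compared were fitted (adjusted p up to 0.223), and its direction was kept in all 21 alternatives.

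Of the 77 members, 6, all of them longer ones, had both 32 µM libraries below both DMSO + LPS libraries, as had 3440 of all 14172 genes. Atp5a1, which did not pass, stood at 774 and 720.1 CPM at 32 µM, both below the 818 and 837 CPM of DMSO + LPS (log2 difference -0.15, 95% interval -0.28 to -0.02, adjusted p = 0.164). Atp5c1, which did not pass either, stood at 138 and 139 CPM against 150.1 and 149 CPM (-0.11, 95% interval -0.22 to 0.00420). With the short-transcript score in the model, 4 members were lower and 2 higher at 32 µM (all genes called: 25.6%), among them Cox7a2l (-0.20), Atp5a1 (-0.13) and Atp5c1 (-0.10) lower and Cox5b, a zinc-binding subunit of complex IV, higher by 0.16, whereas its log2 difference was 0.07 with groups alone.

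At 10 µM no member passed in edgeR (2.67% of all genes did), 1 had an unadjusted p below 0.05 (12.1% of all genes had), namely Cox7a2l, and DESeq2 called 0. The median log2 difference was 0.15, with 64 of 77 above 0 (54.8% of all genes, 62.4% of other short genes and 75.4% of ribosomal protein genes were), and it was -0.14 without 10 µM replicate 1 and 0.40 without replicate 2. The short members, 49 of 50 of them above 0, had a median of 0.21 and the longer ones of 0.02. Cox5b showed how far the pairs were apart, at 134 and 76.1 CPM against 75.4 and 87.5 CPM with DMSO + LPS. With the score in the model 4 members were higher and 2 lower (11.9% of all genes called), with Cox5b higher by 0.22 and Cox7a2l lower by 0.15.

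At 3.2 µM most members stood above their level with DMSO + LPS, and none passed. In 57 of 77 both 3.2 µM libraries were above both DMSO + LPS libraries, against 24.4% of all genes, and 70 of 77 log2 differences were above 0 (51.7% of all genes, 65.5% of other short genes and 87.7% of ribosomal protein genes were), with a median of 0.23, or 0.18 without 3.2 µM replicate 1. In edgeR 0% of all genes passed, no member had an unadjusted p below 0.05 (4.23% of all genes had), and DESeq2 called 0 members. When the spread was taken from these 4 libraries alone, 36 members passed, all higher (2.45% of all genes were higher and passed): 15 of complex I, 0 of complex II, 5 of complex III, 8 of complex IV and 8 of complex V. These pairs were the 2 whose short members agreed best between replicates, and the test on 4 libraries had a median standard error of 0.06 in place of 0.29. The largest differences were those of Atp5k, at 27.1 and 29.2 CPM with DMSO + LPS and 51.5 and 41.4 CPM at 3.2 µM, and of Ndufa3, a small accessory subunit of complex I, at 25.6 and 27.7 CPM and 45.2 and 37.9 CPM. Both genes were picked after their values were seen.

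The difference at 3.2 µM was larger in the short members, 41 of 50 having both libraries above, with a median of 0.29. Of the longer members 16 of 27 had both libraries above, with a median of 0.07, against 2656 of 12091 other long genes. Other short genes leaned the same way, 728 of 1923 having both libraries above, with a median of 0.10, and so did 120 of 171 ribosomal protein genes (median 0.25). The short-transcript score was 0.15 and 0.10 in the 3.2 µM libraries and -0.00281 and 0.07 in those of DMSO + LPS. With the score in the model the members' median was 0.01 and none passed.

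**Figure D5:**
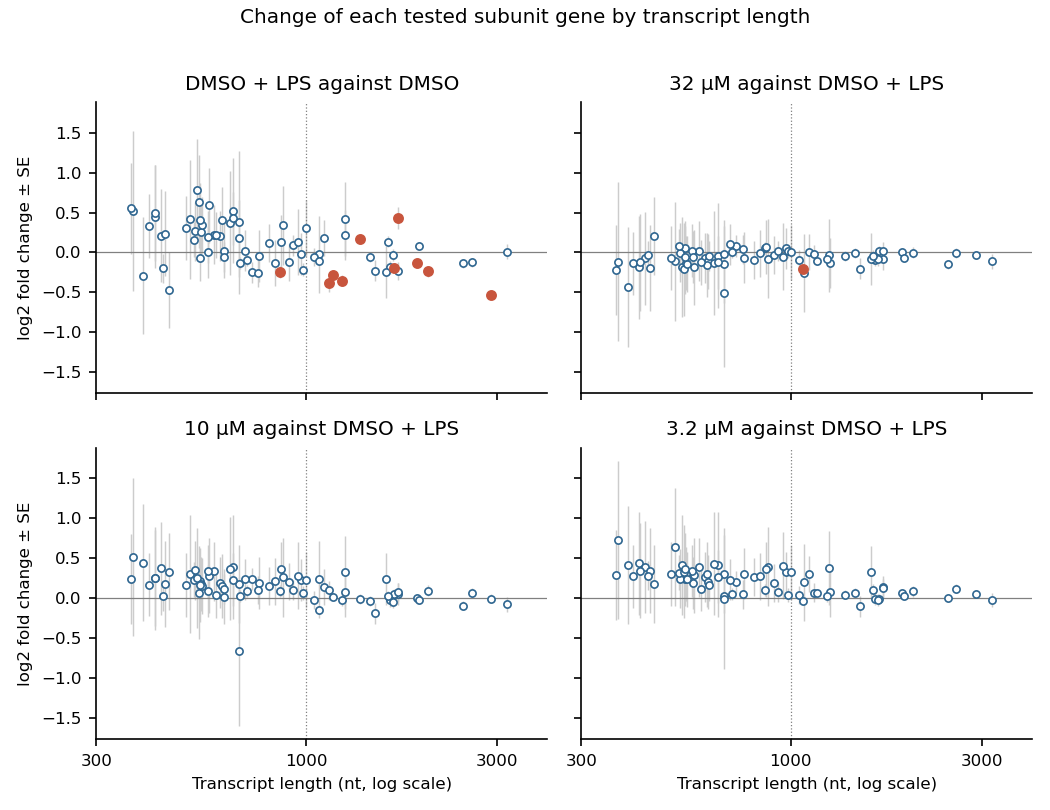
Log2 difference of each of the 77 tested subunit genes against transcript length (log scale) in 4 comparisons, with bars of 1 SE. Filled red points passed at an adjusted p below 0.05: they number 10 for LPS and 1 at 32 µM, and 9 of the 10 and the single one at 32 µM have transcripts of at least 1000 nt, right of the dotted line, where the bars are short.

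The doses were also set against each other. Between 32 and 10 µM no member passed (2.76% of all genes did), 1 had an unadjusted p below 0.05, as had 12.5% of all genes (Atp5c1, -0.12, 95% interval -0.24 to -0.01), and DESeq2 called 0. Between 10 and 3.2 µM no member passed either (0.903% of all genes did), again with 1 at an unadjusted p below 0.05, as were 8.38% of all genes (Cox7a2l, -0.11) and 0 by DESeq2. The members' median was -0.16 and -0.06. The first of these was 0.11 without 10 µM replicate 1, 0.04 without 32 µM replicate 2 and -0.58 without 32 µM replicate 1, and the second was -0.36 without 10 µM replicate 1 and 0.17 without 10 µM replicate 2. The pooled SD between replicates was 0.43 for the level of the short members and 0.10 for that of the longer ones.

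Genes that serve the same machines but lie outside the symbol rule were read beside the members. Cytochrome c, the carrier between complexes III and IV, rose with LPS: Cycs went from 122 and 107 CPM to 187 and 199 CPM (log2 difference 0.75, SE 0.07, edgeR adjusted p = 6.21e-05). It was the only one of 6 tested subunits and carriers outside the rule to pass there (16.7%, against 50.9% of all genes). Of the 13 subunits encoded in mitochondrial DNA, 4 were lower with LPS (25.8% of all genes were), mt-Nd2 (-0.38), mt-Nd1 (-0.32), mt-Nd5 (-0.28) and mt-Cytb (-0.28), and 2 were lower at 32 µM than with DMSO + LPS (9.78% of all genes passed there in either direction), mt-Co1 (-0.45) and mt-Cytb (-0.29). Cytochrome b, mt-Cytb, stood at 3031 and 2925 CPM with DMSO, 2499 and 2409 CPM with DMSO + LPS and 2024 and 1999.6 CPM at 32 µM, and these groups did not overlap. It stood at 2400.4 and 2505 CPM with the 10 µM dose and at 2622 and 2615 CPM with 3.2 µM, both of the latter above DMSO + LPS.

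Among 44 assembly factors, 7 were higher and 4 lower with LPS, against 25.2% and 25.8% of all genes, led by Ttc19, which acts on complex III (0.94), and Cox18, which inserts a complex IV subunit into the membrane (0.67), and by Atpaf1 (-0.45), a chaperone of the ATP synthase head, and Ndufaf7 (-0.42), a methyltransferase for complex I. At 32 µM, 4 were lower and 1 higher than with DMSO + LPS, 11.4% of the list against 9.78% of all genes. Cox18 went from 20.8 and 19.3 CPM with DMSO to 30.2 and 33.5 CPM with DMSO + LPS and was at 21.5 and 21.1 CPM at 32 µM, lower than with DMSO + LPS by 0.58. Foxred1, an assembly factor of complex I, was lower by 0.39 and Coa5 by 0.24, and Ndufaf1, another complex I factor, was higher by 0.33. Of 13 tested regulators of mitochondrial genes, 6 were lower and 1 higher with LPS, again against 25.8% and 25.2% of all genes. The coactivator Ppargc1b was lower by 0.74 on the log2 scale, and the mitochondrial transcription factors Tfb2m and Tfam by 0.51 and 0.37, with the mitochondrial RNA polymerase Polrmt lower by 0.34. Pprc1, a relative of Ppargc1b, was higher by 0.27. None of these regulators passed at 32, 10 or 3.2 µM, where 2, 1 and 0 of 13 had an unadjusted p below 0.05, against 22.2%, 12.1% and 4.23% of all genes.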

How the data were processed

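Gene counts were deposited by the authors as 1 table of raw read counts per Ensembl gene. Trimmomatic, FastQC, STAR and DESeq2, with the build mm10, are named in the submitters' processing notes. The counting tool, its annotation and its use of strand are not given in the sources used here. Symbols, coordinates and transcript lengths were taken from GENCODE M21 (GRCm38), and promoter windows from RefSeq (GRCm38.p6). The length of a gene is that of its principal transcript.

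Counts were scaled by trimmed means, filtered at a minimum count of 10 (14172 of 43432 genes kept), and tested with edgeR 4.0.16 (R 4.3.3) by quasi-likelihood over 5 groups and 10 libraries, with a common biological coefficient of variation of 0.128 and Benjamini-Hochberg adjustment over all genes. Alternatives were DESeq2 1.42.0, other scalings, no filter or one at 5 CPM, a replicate block, the short-transcript score, only the 4 libraries compared, and each library left out. The protein-coding form of the score and the crossed block were added after the data had been seen. The fits were also run on simulated counts drawn independently for each gene, with no shift by transcript length between libraries. That run cannot show how the fits handle such a shift. Total counts per library were 45966803 to 58976377.

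The members, gene lists and tests were chosen with earlier results of these data known. Named are the core subunits, up to 4 members per complex with the largest change among those that passed, isoform pairs and members at the extremes of level or next to the read limit, and up to 4 genes of each further list. The values of 1 core subunit are not reported here. Reads shared with processed pseudogenes of these genes may be split or lost in ways that could not be checked.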

Additional observations from a re-analysis of the deposited data

Results flagged for a closer look

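The mitochondrially encoded gene for cytochrome b was lower at 32 µM than at 10 µM of compound 1 in the direct test of the doses (mt-Cytb, log2 difference -0.29, SE 0.04, edgeR adjusted p = 0.00703), the only gene of the members and of the other oxidative phosphorylation lists to pass there. The 32 µM libraries stood at 2024 and 1999.6 CPM and those at 10 µM at 2400.4 and 2505 CPM.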

How the results depend on the processing

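Of 77 members, 10 passed for LPS. With a 1.5-fold limit 0 did, with library totals 20, with the crossed replicate block 20, with the short-transcript score 64, with the replicate block and that score 56, and with the score from protein-coding genes 43. Of all genes, 50.9% passed in the model with groups alone, 56.5% with library totals, 58.5% with the crossed block, 62.6% with the score, 57.7% with block and score and 62.9% with the protein-coding score. The median of 0.09 became -0.29 with the score and -0.29 with block and score. At 32 µM the count of 1 became 0 with the 1.5-fold limit and 0 on the 4 libraries compared, 6 with the score, 4 with block and score, 4 with the protein-coding score and 2 with the crossed block, where 7.38% of all genes passed on the 4 libraries, 25.6%, 24.5% and 25.1% with the 3 forms of the score and 15.6% with the crossed block. At 10 µM it was 0, and 6 with each form of the score (11.2% to 12.1% of all genes). At 3.2 µM it was 0, and 36 on the 4 libraries compared (3.64% of all genes). Between 32 and 10 µM it was 0, and 1 with block and score (9.44% of all genes), and between 10 and 3.2 µM 0, and 1 with each form of the score (6.24% to 7.13% of all genes). The causes were not tested. With single libraries left out, the count ran from 3 to 11 for LPS and from 0 to 1 at 32 µM and stayed at 0 in the other comparisons, and the median between 32 and 10 µM ran from -0.58 to 0.11. With the score 4 of 77 members had a log2 difference above 0 for LPS, against 44 with groups alone. Sign changes of core and isoform genes are given where the gene passed in either model; others occurred without passing. With the score these were Cox5a (-0.51), Cox5b (-0.38), Cox6a1 (-0.28), Cox6c (-0.26), Ndufa4 (-0.25), Uqcrh (-0.24), Atp5g1 (-0.20), Cox7b (-0.19), Cox8a (-0.16) and Sdhc (-0.12). Atp5k (-0.74) and Ndufa3 (-0.60) changed sign and passed with the score as well. With block and score the core and isoform genes were Cox5a (-0.42), Cox5b (-0.39), Cox6a1 (-0.26), Uqcrh (-0.22), Ndufa4 (-0.21) and Cox6c (-0.19), with the protein-coding score Cox5b (-0.23), and with library totals Uqcrfs1 (-0.0392). Whether replicate numbers pair the libraries was not settled: over all genes, deviations of same-numbered libraries correlated at -0.17 to -0.07 in the comparisons with a control and at 0.44 and 0.57 between doses, and over the members at -0.67 (3.2 µM against DMSO + LPS) to 0.94 (32 against 10 µM), so no pairing was assumed. The replicate block alone gave 11 members for LPS and left the other counts as they were. DESeq2 gave the same counts of members as edgeR in every comparison. What depth alone limits was not tested, since no library was thinned.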
